A study of Homo sapiens with 3 samples.

Results

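The genes of mitosis and the G2/M transition were followed as a list of 43 human genes across 3 oligonucleotide arrays of KYSE180, a cell line from an oesophageal squamous cell carcinoma. Probe sets were matched by symbol alone, as every probe set whose annotated gene symbol is exactly one of the 43, and the matching used no measured values. The list itself was chosen with earlier results of these data known, so its counts are a description. Single-symbol probe sets numbered 116 for 42 of the genes, of 44988 such probe sets for 18132 genes in all. PTTG1 (securin, the inhibitor of separase) was present only on a probe set shared with PTTG3P. A gene was represented by its brightest probe set, averaged over the arrays, and kept where that mean reached the median of all probe sets, a log2 signal of 5.28. This kept 41 members and 10917 genes, and left out KIF20B.

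There was 1 array per group. One group was transfected with LZRS_HOTAIR, a vector for HOTAIR, a long non-coding RNA transcribed from the HOXC cluster, by means of Polyfect. Another received a mixture of Stealth siRNAs against HOTAIR, at 100 pmol with Lipofectamine2000. RNA of both was taken 48 h after transfection. The third is labelled only as control KYSE180 cells, and whether it was given a reagent or a negative-control siRNA is not stated in its labels. All groups share the KYSE180 background, although one label of the siRNA sample speaks of a HOTAIR cell line where its title and cell line field name KYSE180. Of 8 squamous markers fixed for the check, 5 were measured, and all 5 were above the filter on every array, with log2 signals from 9.19 to 12.22 in vector, 8.92 to 13.01 in siRNA and 9.54 to 13.38 in control cells. The summed squamous signal was 13.77 in vector, 14.28 in siRNA and 14.41 in control cells (log2). All 4 leukocyte, 4 endothelial and 5 fibroblast markers measured had mean signals below the filter, as did 4 of 5 glandular markers. CDX2 was above it, at 6.97 to 7.58. The 3 smooth muscle markers had mean signals above the filter but close to it, with signals of 5.13 to 6.06. HOTAIR had 0 annotated probe sets, so neither manipulation could be checked on these arrays.

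Entry into mitosis is driven by CDK1 bound to cyclin B, which is held inactive by phosphorylation until CDC25 phosphatases act on it. Once chromosomes are condensed and attached to the spindle through their kinetochores, the spindle checkpoint releases CDC20, the anaphase-promoting complex destroys cyclin B and securin, and the cell divides. Most genes of this programme are transcribed late in the cell cycle, through promoters that often hold CCAAT boxes, bound by NF-Y, and the cell cycle genes homology region (CHR), bound by the MuvB complex together with B-MYB and FOXM1. Their summed expression is widely used as a measure of proliferation in tumours, including squamous carcinomas.

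Promoters are shown for the members with the highest (HMMR, NUF2, CDK1 and SMC2) and the lowest (AURKB and CDC20) mean difference from control among the 36 members with an entry in the RefSeq promoter table. The sequences are the 250 bases before the gene start in GRCh38.p14, read 5′ to 3′ on the strand of the gene, which is the minus strand for AURKB and the plus strand for the others. Capitals mark the CHR core TTTGAA and the CCAAT box on either strand, so that TTCAAA and ATTGG are their reverse complements. HMMR lies at chr5:163460382-163460631, NUF2 at chr1:163321704-163321953, CDK1 at chr10:60778081-60778330, SMC2 at chr9:104094059-104094308, AURKB at chr17:8210226-8210475 and CDC20 at chr1:43358731-43358980.
HMMR: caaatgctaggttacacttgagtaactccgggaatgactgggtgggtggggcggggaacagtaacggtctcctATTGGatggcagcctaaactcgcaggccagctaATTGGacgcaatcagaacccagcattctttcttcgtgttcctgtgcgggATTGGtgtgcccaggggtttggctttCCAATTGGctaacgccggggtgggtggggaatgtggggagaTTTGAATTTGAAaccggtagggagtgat
NUF2: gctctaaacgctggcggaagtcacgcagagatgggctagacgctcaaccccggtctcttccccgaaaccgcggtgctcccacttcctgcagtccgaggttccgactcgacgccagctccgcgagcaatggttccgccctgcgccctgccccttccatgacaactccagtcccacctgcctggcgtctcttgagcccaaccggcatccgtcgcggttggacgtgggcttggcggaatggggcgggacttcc
CDK1: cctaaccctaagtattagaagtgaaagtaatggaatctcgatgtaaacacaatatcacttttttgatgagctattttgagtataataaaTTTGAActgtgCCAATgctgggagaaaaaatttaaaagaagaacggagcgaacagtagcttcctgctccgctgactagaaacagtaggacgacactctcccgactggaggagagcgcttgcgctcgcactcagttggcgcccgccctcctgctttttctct
SMC2: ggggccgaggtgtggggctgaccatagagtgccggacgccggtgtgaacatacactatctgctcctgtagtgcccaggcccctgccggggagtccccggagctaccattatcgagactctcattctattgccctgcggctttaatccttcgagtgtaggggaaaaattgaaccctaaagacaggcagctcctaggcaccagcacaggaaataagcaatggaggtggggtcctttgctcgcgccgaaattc
AURKB: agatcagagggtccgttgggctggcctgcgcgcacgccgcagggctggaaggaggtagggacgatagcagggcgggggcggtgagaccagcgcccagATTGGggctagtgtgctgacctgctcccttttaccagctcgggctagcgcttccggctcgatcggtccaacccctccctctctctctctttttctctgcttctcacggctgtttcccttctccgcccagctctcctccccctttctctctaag
CDC20: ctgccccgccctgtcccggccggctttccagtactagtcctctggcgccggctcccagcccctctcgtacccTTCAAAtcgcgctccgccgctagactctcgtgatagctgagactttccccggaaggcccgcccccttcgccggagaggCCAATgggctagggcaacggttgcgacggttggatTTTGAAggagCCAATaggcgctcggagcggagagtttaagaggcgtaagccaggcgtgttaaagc

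HMMR held 2 CHR cores in tandem, ending 17 bases before the gene start, and 5 CCAAT boxes, of which the pair nearest to the gene start overlaps. CDC20 held 2 CHR cores and 2 CCAAT boxes, CDK1 held 1 of each and AURKB held 1 CCAAT box. NUF2 and SMC2, which were among the highest members, had neither set of letters in this window. Over the 36 members with a promoter, 17 held the CHR core (47.2%), against 8.19% of the promoters of genes kept and 13.6% of all 27305 promoters in the table. CCAAT was found in 26 member promoters (72.2%), against 35.6% of those of genes kept and 33.0% of all. Both motifs stood together in 14 member promoters (38.9%), against 3.52% of those of genes kept. The sets also differ in base composition, with a median GC content of 60.4% for members, 65.2% for genes kept and 58% for all promoters. Its part in these shares was not tested.

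Of the members 2-fold or more above control in vector cells, 10 of 17 with a promoter held the CHR core and 11 held CCAAT, against 7 and 13 of the 17 other members. In siRNA cells the counts were 10 and 11 of 16 members at least 2-fold higher than control, and 7 and 13 of the 18 others. Over all genes kept, the CHR core also stood in more promoters of genes at least 2-fold higher than of the others, 12.5% against 7.40% in vector cells and 12.5% against 7.41% in siRNA cells. The base composition overlapped in the same way, with a median GC content of 58.0% (44.4 to 75.2%) for members at least 2-fold higher in vector cells and 63.2% (48.8 to 83.2%) for the others. These are counts of letters in a window of 250 bases, given as a description.

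The first comparison asked how the mitotic genes of HOTAIR vector cells differed from those of control cells. Of the 41 members kept, 18 (43.9%) were at least 2-fold higher in vector cells, against 15.2% of all genes kept, and 0 were at least 2-fold lower, against 2.05%. The members' median log2 difference was 0.53, against -0.18 for all genes kept. The second comparison set HOTAIR siRNA cells against the same control array. There 17 of 41 members (41.5%) were at least 2-fold higher, against 14.9% of all genes kept, and 1, CDC20, was lower, against 1.85%, with a median of 0.64 against -0.17. Both comparisons use 1 control array, so their values for a gene are not independent of each other. In the third comparison, vector minus siRNA, which leaves the control out, 3 of 41 members (7.32%) were at least 2-fold higher in vector cells, against 1.73% of all genes kept, and 0 were lower, against 1.85%, with a median of 0.080 against 0.014.

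**Figure D1:**
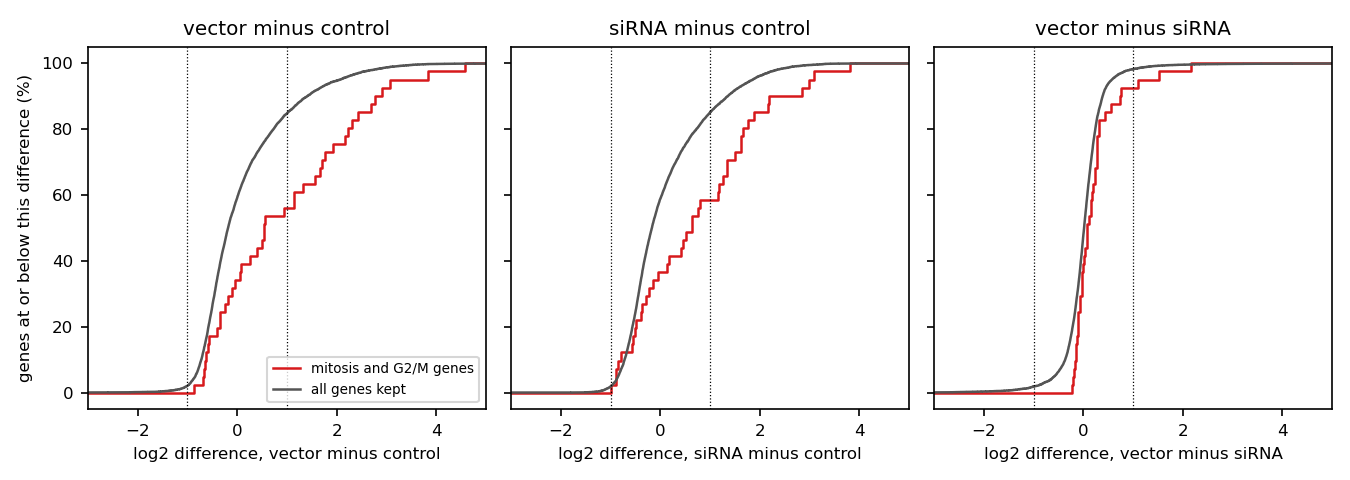
Cumulative share of genes (vertical axis, %) at or below each log2 difference (horizontal axis, cut off at -3 and 5) for the 41 mitosis and G2/M genes (red) and all 10917 genes kept (grey) in the 3 comparisons, with dotted lines at 2-fold. In the comparisons with control the red curve lies to the right of the grey one above 0 and near it at -1; between vector and siRNA both rise close to 0, and 3 members lie past 2-fold.

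Each group is a single array, so these differences carry no test and cannot be set against replicate error. The only error that could be measured is how far the probe sets of a member lie from each other. Over the 28 members with several probe sets above the filter, the SD of the log2 differences was 0.22 in vector and 0.20 in siRNA cells against control, and 0.16 between the transfected arms. It leaves out variation between cultures and between arrays. In bulk RNA a larger share of cells in mitosis and more RNA per cell cannot be told apart. An effect of the transfection, of its reagent or of the control array itself cannot be told apart from an effect of HOTAIR in either comparison with control. Between the transfected arms, the reagent and the kind of nucleic acid (vector or siRNA) likewise cannot be told apart from HOTAIR. Since many genes outside the list also stood above control, the counts of members are read against those backgrounds.

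**Figure D2:**
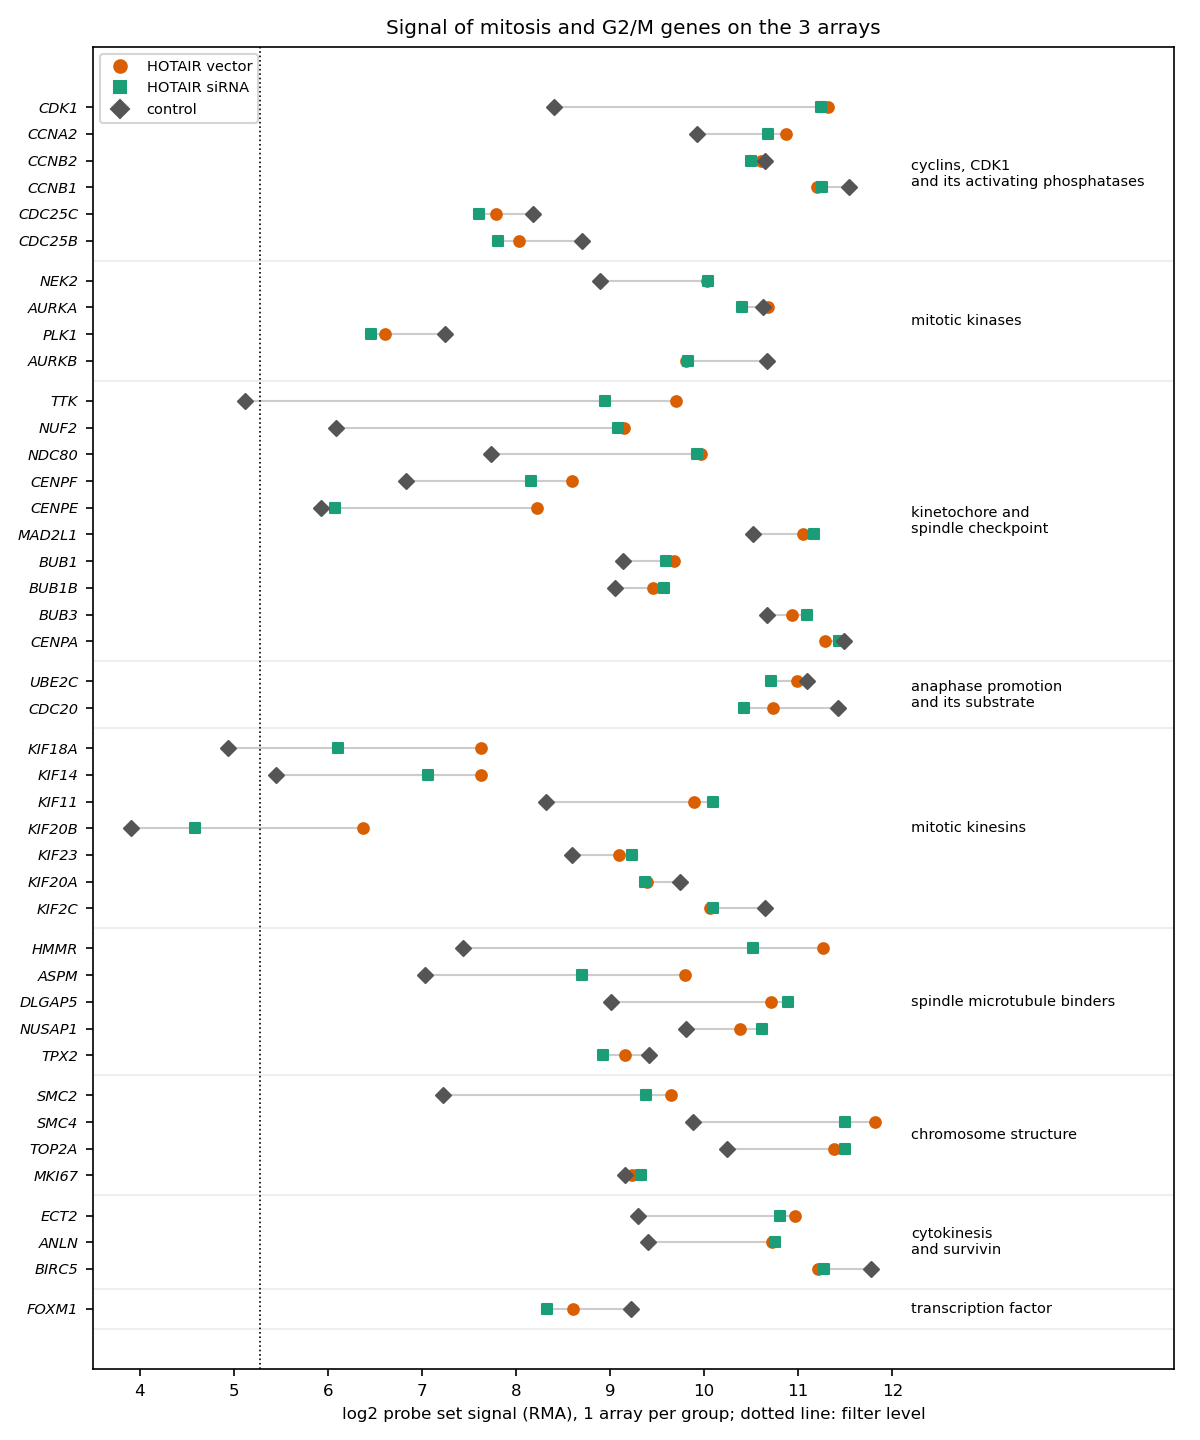
Log2 signals (horizontal axis) of the 42 members measured, by role, on the HOTAIR vector (circle), HOTAIR siRNA (square) and control array (diamond), 1 array each. The dotted line is the filter level of 5.28; signals of different genes come from different probes and are not comparable with each other, and the points to read are the distances within a line.

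CDK1 and its partners went apart. CDK1, the kinase that drives entry into mitosis, had log2 signals of 11.31 in vector, 11.25 in siRNA and 8.40 in control cells. That is 2.91 above control in vector cells (7.52-fold) and 2.84 in siRNA cells (7.18-fold), while the transfected arms were 0.067 apart. Its other probe set above the filter gave smaller differences, 1.75 and 1.91, and with the mean over its 3 probe sets, one of them dim, they were 1.69 and 1.72. The cyclins did not share this size. CCNB1 (cyclin B1) had 11.20 in vector, 11.25 in siRNA and 11.54 in control cells, and CCNB2 (cyclin B2) had 10.61, 10.50 and 10.65. CCNA2 (cyclin A2), which acts in S phase and G2, had 10.87 in vector, 10.68 in siRNA and 9.93 in control cells. It was 0.94 above control in vector cells (1.92-fold) and 0.75 in siRNA cells (1.68-fold). The other probe set of CCNA2 gave smaller differences, 0.52 and 0.14. Of the CDC25 phosphatases that activate CDK1, CDC25B had 8.04, 7.81 and 8.70, or -0.67 and -0.89 against control. CDC25C had 7.78, 7.61 and 8.18 in vector, siRNA and control cells. Neither reached 2-fold.

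Among the mitotic kinases, NEK2, which separates centrosomes before the spindle forms, had 10.03 in vector, 10.04 in siRNA and 8.89 in control cells. It was 1.13 and 1.15 above control, and all 6 of its probe sets above the filter were higher in both arms. After repeated quantile normalization its vector difference was just under 1, at 0.998. The other kinases were not 2-fold apart in any comparison. PLK1, which acts from centrosome maturation to cytokinesis, had 6.60 in vector, 6.45 in siRNA and 7.25 in control cells. AURKB, the kinase of the chromosomal passenger complex, had 9.81, 9.82 and 10.67, the lowest vector difference of the list at -0.86. AURKA, the centrosomal Aurora kinase, had 10.68 in vector, 10.40 in siRNA and 10.62 in control cells, or 0.055 and -0.22 against control. A further probe set shared with AURKAP1 and RAB3GAP2 stayed out of the counts. It was at -0.29 and -0.48, so on the other side of 0 in vector cells.

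The kinetochore and checkpoint group held both the largest difference of the list and several genes close to control. Of its 10 members, 5 were at least 2-fold higher in vector cells and 4 in siRNA cells, against 15.2% and 14.9% of all genes kept. TTK, the kinase MPS1 that starts checkpoint signalling at unattached kinetochores, had 9.70 in vector, 8.94 in siRNA and 5.12 in control cells. It was 4.58 above control in vector cells (23.8-fold) and 3.82 in siRNA cells (14.2-fold), on a single probe set whose control signal lay below the filter level. NUF2 and NDC80 form the arm of the NDC80 complex that grips microtubules. NUF2 had 9.15 in vector, 9.08 in siRNA and 6.08 in control cells, and NDC80 had 9.96, 9.93 and 7.73, each on 1 probe set. Both were thus nearly level between the transfected arms and 2.20 to 3.07 above control. SPC24 and SPC25, which complete that complex and were looked up after these values were seen, did not follow. SPC24 was at -0.83 and -0.30 against control in vector and siRNA cells, and SPC25 at 0.091 and 0.20.

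CENPF, a large kinetochore protein that peaks in G2, had 8.59 in vector, 8.16 in siRNA and 6.83 in control cells. CENPE, the kinesin that carries chromosomes to the spindle equator, had 8.23 in vector, 6.07 in siRNA and 5.93 in control cells on its only probe set. The siRNA signal was thus close to control (0.15), and the vector signal stood 2.30 above control and 2.16 above siRNA. The checkpoint genes BUB1, BUB1B (BubR1), BUB3 and MAD2L1 (MAD2) lay between 0.26 and 0.64 above control in both arms, none at 2-fold. The 3 probe sets of BUB3 fell on both sides of 0 in both comparisons with control. CENPA, the histone H3 variant that marks the centromere, had 11.29 in vector, 11.43 in siRNA and 11.48 in control cells.

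**Figure D3:**
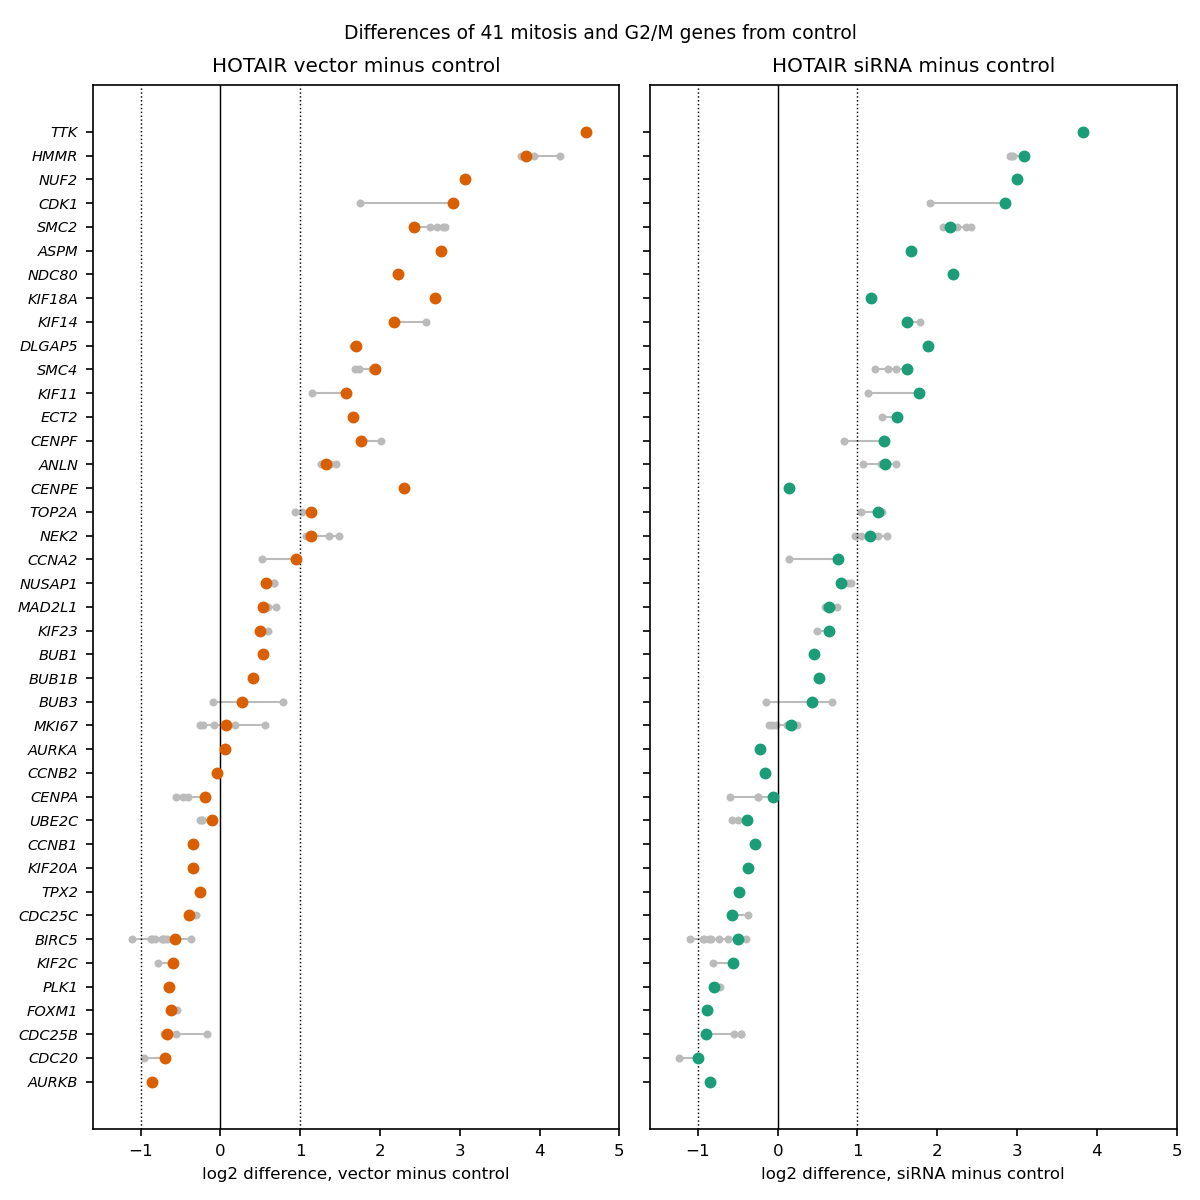
Log2 differences (horizontal axis) of the 41 members from control, HOTAIR vector on the left and HOTAIR siRNA on the right, sorted by the mean of both. Coloured points are the representative probe sets, grey points and lines the other probe sets above the filter, and dotted lines mark 2-fold; the panels share the control array. TTK, HMMR, NUF2 and CDK1 are at the top and AURKB and CDC20 at the bottom, and CENPE is far from 0 only on the left.

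CDC20, the activator of the anaphase-promoting complex, had 10.74 in vector, 10.43 in siRNA and 11.43 in control cells. It was -0.69 in vector cells and -1.00 in siRNA cells. The siRNA value lay so near the 2-fold line that 4 of 5 other settings put it inside, between -0.81 and -0.98. The -0.81 is the mean over probe sets and includes a dim one (-0.19). The other CDC20 probe set above the filter gave larger differences, -0.96 in vector and -1.24 in siRNA cells. That probe set also gave the value of the fifth setting, without _x_at and _s_at probe sets. Of this group, neither CDC20 nor UBE2C was above control. UBE2C, the ubiquitin-conjugating enzyme of that complex, had 10.99 in vector, 10.71 in siRNA and 11.09 in control cells. The probe set shared by PTTG1 and PTTG3P had 11.88, 11.79 and 12.05, and these genes cannot be told apart on it.

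The mitotic kinesins split by gene. KIF11 (Eg5), which pushes spindle poles apart, had 9.89 in vector, 10.09 in siRNA and 8.32 in control cells. KIF14, a kinesin of cytokinesis, had 7.62, 7.07 and 5.45. KIF18A, which dampens chromosome movements at the spindle equator, had 7.63 in vector, 6.11 in siRNA and 4.94 in control cells. All 3 kinesins, of the 6 kept, were at least 2-fold above control in both arms. Of all genes kept, 15.2% were so in vector and 14.9% in siRNA cells. The sizes for KIF11, KIF14 and KIF18A were 1.57, 2.18 and 2.69 in vector cells and 1.77, 1.62 and 1.17 in siRNA cells. KIF18A had 1 probe set, and its control signal lay below the filter level, while that of KIF14 was close to it. Their sizes are thus uncertain. The cytokinesis kinesins KIF23 (MKLP1) and KIF20A (MKLP2) were at 0.50 and -0.35 against control in vector cells and 0.64 and -0.37 in siRNA cells. KIF2C (MCAK), a kinesin that takes microtubules apart, had 10.06 in vector, 10.09 in siRNA and 10.65 in control cells. KIF20B, a kinesin of late cytokinesis that the filter left out, had 6.37, 4.59 and 3.91, so only its vector signal lay above the filter level.

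Of 5 spindle microtubule binders, 3 were at least 2-fold above control in both transfected arms. The shares over all genes kept were 15.2% in vector and 14.9% in siRNA cells. HMMR, which binds hyaluronan at the cell surface and spindle microtubules inside the cell, had 11.27 in vector, 10.52 in siRNA and 7.44 in control cells. It was 3.83 above control in vector cells (14.2-fold) and 3.09 in siRNA cells (8.50-fold), and its 4 probe sets ranged from 3.76 to 4.25 and from 2.92 to 3.09. ASPM, which focuses spindle poles, had 9.80 in vector, 8.70 in siRNA and 7.03 in control cells. Its order was vector, siRNA, control on both probe sets, with differences from control of 2.77 and 1.67. DLGAP5 (HURP), which stabilises fibres at kinetochores, had 10.71, 10.90 and 9.01 in vector, siRNA and control cells. NUSAP1 was at 0.57 and 0.80 against control in vector and siRNA cells. TPX2, which activates AURKA on the spindle, had 9.16 in vector, 8.93 in siRNA and 9.41 in control cells.

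Of the chromosome structure genes, 3 of 4 were at least 2-fold above control in both transfected arms, and the fourth was MKI67. Over all genes kept the shares were 15.2% in vector and 14.9% in siRNA cells. SMC2 and SMC4 encode the ATPase core of condensin, which compacts mitotic chromosomes. SMC2 had 9.65 in vector, 9.38 in siRNA and 7.22 in control cells. All 7 of its probe sets agreed, from 2.43 to 2.82 above control in vector cells and from 2.07 to 2.42 in siRNA cells. SMC4 had 11.81, 11.50 and 9.88, or 1.93 and 1.62 above control. TOP2A, the topoisomerase that untangles sister chromatids, had 11.38 in vector, 11.50 in siRNA and 10.24 in control cells. MKI67, which encodes the Ki-67 antigen of proliferating cells, had 9.23 in vector, 9.33 in siRNA and 9.16 in control cells, and its 6 probe sets lay on both sides of 0.

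Of the cytokinesis genes, ECT2, which activates RhoA at the division plane, had 10.96 in vector, 10.80 in siRNA and 9.30 in control cells. ANLN (anillin), a scaffold of the contractile ring, had 10.73, 10.76 and 9.41, with all 4 probe sets at least 2-fold above control in both arms. BIRC5 (survivin) belongs to the chromosomal passenger complex with AURKB. It had 11.21 in vector, 11.28 in siRNA and 11.78 in control cells, or -0.57 and -0.50. All 10 of its probe sets above the filter were below control in both arms. They ranged from -1.11 to -0.37 in vector and from -1.10 to -0.39 in siRNA cells. The lowest values, both on the same probe set, were past 2-fold. The remaining passenger genes, INCENP and CDCA8 (borealin), which were looked up after these values were seen, were also lower than control, none at 2-fold. INCENP was at -0.50 and -0.29 and CDCA8 at -0.78 and -0.81 in vector and siRNA cells. FOXM1, the transcription factor that activates many of these promoters, had 8.60 in vector, 8.33 in siRNA and 9.22 in control cells, or -0.62 and -0.88, and its 3 probe sets agreed within an SD of 0.038 and 0.0081.

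On their representative probe sets, lower members stayed within 2-fold of control, apart from CDC20 in siRNA cells. In vector cells 6 members, AURKB, CDC20, CDC25B, FOXM1, KIF2C and PLK1, were between 1.5-fold and 2-fold lower than control. In siRNA cells 4 were, AURKB, CDC25B, FOXM1 and PLK1. At least 1.5-fold lower were thus 6 of 41 members in vector and 5 in siRNA cells. Over all genes kept the shares were larger, at 19.4% and 18.0%. Below 0 stood 14 of 41 members in vector and 15 in siRNA cells, against 6459 and 6420 of the 10917 genes kept. Of these members, 12 and 13 kept that side under each scaling and probe set choice in which they had a value. CCNB2 and UBE2C changed side in vector cells, and CCNB2 and CENPA in siRNA cells, under at least 1 scaling. Of the members above 0, 25 of 27 in vector and 25 of 26 in siRNA cells kept that side, and AURKA and MKI67 in vector cells and MKI67 in siRNA cells did not. Probe sets of a gene mostly gave the same side. In each comparison with control, 26 of the 28 members with several probe sets above the filter had all of them on one side of 0, and 12 had all of them past 2-fold, while those of BUB3 and MKI67 lay on both sides.

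Between the transfected arms most of the list was level, as were most genes kept, so this was not particular to the members. Among all genes kept, 1.73% passed the 2-fold line on the vector side and 1.85% on the siRNA side. For the members these shares were 7.32% and 0%. The vector and siRNA arrays differed by less than 2-fold in 38 of 41 members. The exceptions were CENPE (2.16, 4.45-fold), KIF18A (1.52, 2.86-fold) and ASPM (1.10, 2.14-fold), all higher in vector cells. Only ASPM had more than 1 probe set, with 1.11 on the other. HMMR and TTK followed at 0.74 and 0.75, and the dimmer probe set of CENPF gave 1.18 where the brighter gave 0.43. KIF20B, below the filter, was at 1.78. At the other end, NUSAP1 was lowest at -0.23, followed by KIF11 at -0.20 and DLGAP5 at -0.18, which are close to the spread between probe sets.

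**Figure D4:**
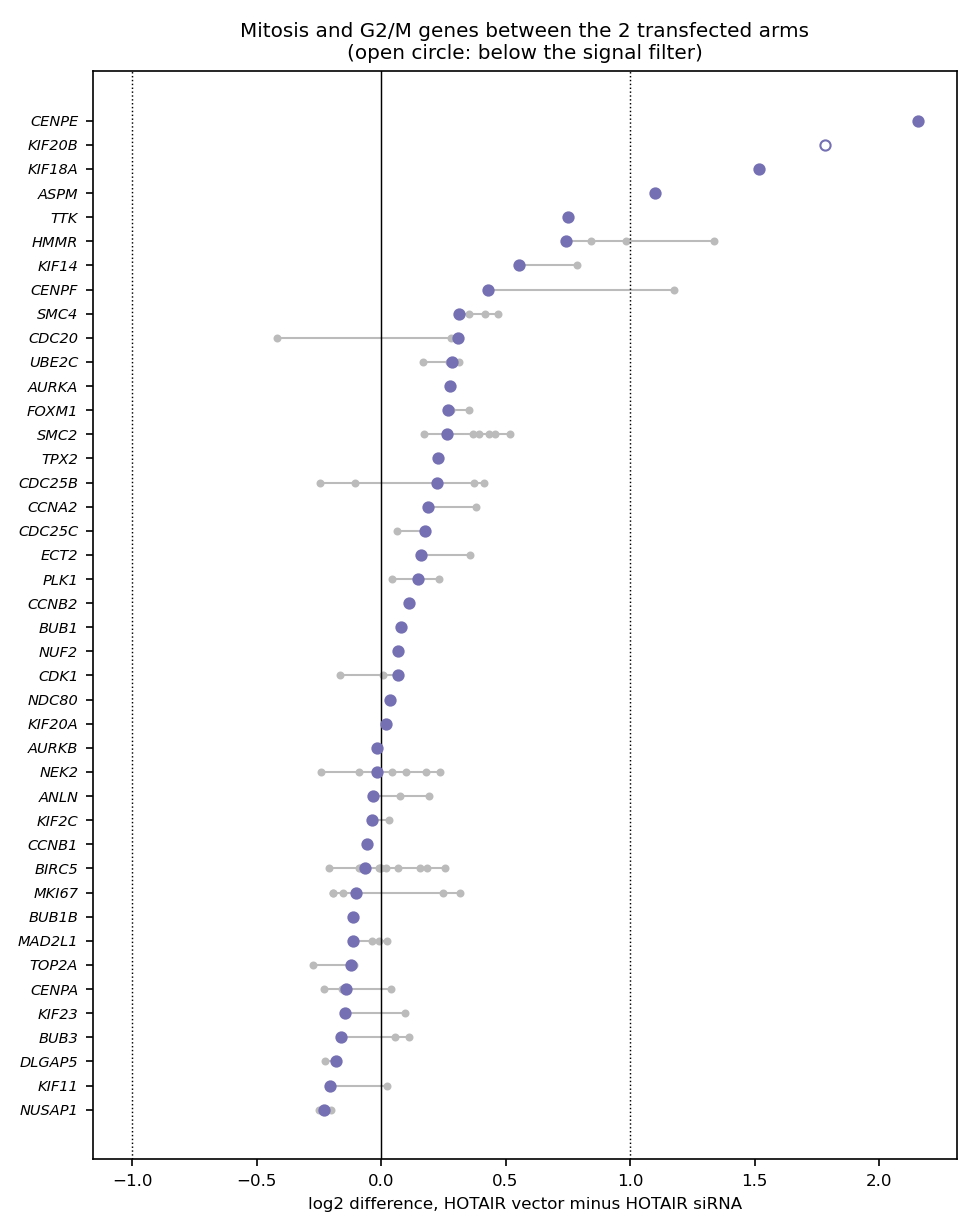
Log2 difference of HOTAIR vector minus HOTAIR siRNA (horizontal axis) for the 42 members measured, sorted by size, with grey points for all other probe sets of a gene and dotted lines at 2-fold. CENPE, KIF18A and ASPM pass 2-fold, KIF20B (open circle) is below the signal filter, and most members lie within 0.30 of 0.

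Other genes of the division machinery, taken from lists that hold no member, were set beside these values. Cohesin, the ring that holds sister chromatids together, and its regulators had 10 of 16 genes (62.5%) at least 2-fold above control in vector and 9 (56.3%) in siRNA cells, with 0 lower in either. All genes kept had 15.2% and 14.9% higher. ESCO1, an acetyltransferase that closes the ring, was at 3.60 and 2.36, the ring subunit STAG2 at 3.26 and 2.83, and ESCO2 at 2.90 and 3.04. SGO2 (shugoshin 2), which protects centromeric cohesin, and ESCO1 were also past 2-fold between the arms, higher in vector cells by 1.91 and 1.25. SGO2 was dim in control cells (4.82). The list's medians were 1.65 and 1.52 against control, above those of the 41 members.

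Of 33 other spindle, kinesin and centrosome genes, 13 (39.4%) were at least 2-fold higher than control in vector cells and 15 (45.5%) in siRNA cells. The shares over all genes kept were 15.2% and 14.9%. TROAP, a spindle gene, was the 1 lower gene of this list, at -1.07 and -1.24. The largest were the centrosomal genes CEP290 (2.81 in vector and 1.30 in siRNA cells) and CEP70 (2.80 and 2.77), and HAUS6 (2.37 and 2.64), a subunit of the augmin complex that branches spindle microtubules. The control signals of CEP290 (4.08) and HAUS6 (5.18) lay below the filter level, so their sizes and ranks rest on dim probe sets. PLK4, the kinase of centriole duplication, was at 2.09 and 2.25. CEP290 was also the only gene of this list at least 2-fold apart between the arms, at 1.51. Of 32 other kinetochore and checkpoint genes, 8 (25%) were at least 2-fold higher in vector and 9 (28.1%) in siRNA cells, with 0 lower. They were led by CENPC (3.03 and 2.46), ZWILCH (2.58 and 2.70) and KNL1 (2.45 and 1.63), while CENPK was at 2.34 and 2.29. The control signal of CENPC (4.02) lay below the filter level, so its size and rank rest on a dim probe set.

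Shares of 2-fold higher genes near those of all genes kept were found for the condensin non-SMC subunits (16.7% in both arms) and the anaphase-promoting complex (13.3% in both arms). Of the 6 condensin subunits, 1, NCAPG, was at least 2-fold above control in each arm, by 2.23 in vector and 1.98 in siRNA cells. None of the 6 was 2-fold lower. Of 15 genes of the anaphase-promoting complex and its partners, ANAPC4 (1.77 and 1.63) and ANAPC13 (1.23 and 1.36) were higher in both comparisons, and UBE2S, an E2 enzyme of the complex, was lower in siRNA cells (-1.06, against -0.88 in vector cells). Among 20 other mitotic kinases, CDK1 regulators and passenger genes, 5 (25%) were at least 2-fold higher than control in vector and 6 (30%) in siRNA cells. All genes kept had 15.2% and 14.9%. NEK7 was at 3.10 and 2.76, BORA, a cofactor for activation of PLK1, at 2.25 and 2.05, and MASTL (Greatwall), which restrains a phosphatase opposing CDK1, at 1.75 and 1.47.

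Of 15 genes that act at G2/M promoters, 3 (20%) were at least 2-fold higher than control in each arm and 0 lower, near the 15.2% and 14.9% of all genes kept, with medians of -0.021 and 0.15. The MuvB subunits LIN9 (3.40 in vector and 2.96 in siRNA cells) and LIN54 (1.07 and 1.12) were higher than control. LIN54 is the subunit that reads the CHR, and the control signal of LIN9 (3.65) lay below the filter level. The other MuvB subunits were within 2-fold of control, LIN37 at -0.31 and -0.68, LIN52 at 0.18 and 0.33 and RBBP4 at -0.040 and 0.087. NFYB, a subunit of the CCAAT-binding factor, was at 1.19 and 0.93, and RBL2 (p130), the pocket protein that joins MuvB in resting cells, at 0.85 and 1.31. MYBL2 (B-MYB), looked up after these values were seen, was at -0.96 and -0.88. The 52 genes of G1/S and DNA replication served as the neighbouring phase. In vector cells 6 were at least 2-fold higher than control and 1, GINS4 (-1.11), was lower, and in siRNA cells 8 were higher and 0 lower, with medians of -0.23 and -0.11. ORC3 (3.79 and 3.54), CCNE2 (cyclin E2, 3.47 and 3.27) and ORC4 (2.39 and 2.08) were the largest, with control signals of ORC3 (4.83) and CCNE2 (5.03) below the filter level. These shares, 11.5% and 15.4%, lie near the backgrounds of all genes, while those of the mitosis and G2/M genes were 43.9% and 41.5%. Higher shares were not particular to the members. The 137 genes of the other lists, without G1/S genes and inhibitors, had 30.7% in vector and 32.8% in siRNA cells. Of 9 cell cycle inhibitors kept, 1 (11.1%) was 2-fold higher in each, CCNG2 at 1.00 and 1.12.

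**Figure D5:**
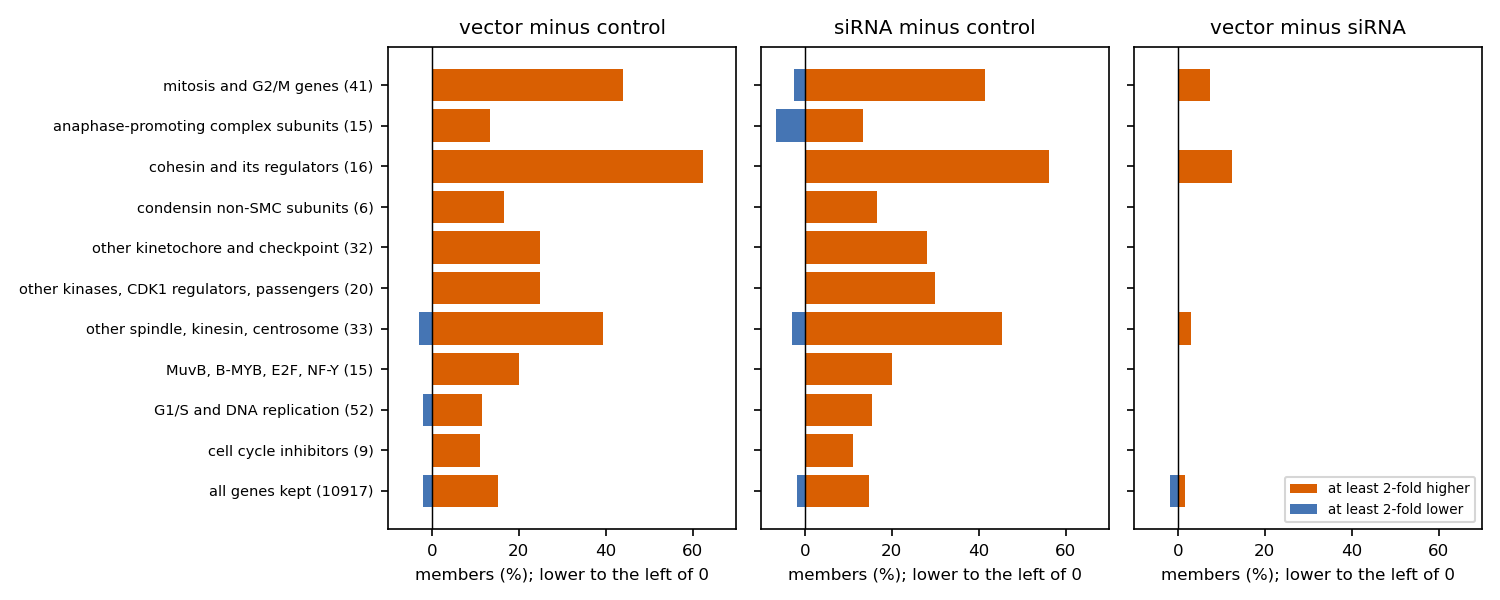
Share of genes (horizontal axis, %) at least 2-fold higher (orange, right of 0) and lower (blue, left of 0) in the 3 comparisons, for the mitosis and G2/M genes, the other cell cycle lists and all genes kept, with the number of genes in brackets. Cohesin genes (62.5% in vector and 56.3% in siRNA cells higher than control) and the mitosis and G2/M genes (43.9% and 41.5%) lie above all genes kept. So do the other spindle, kinesin and centrosome genes (39.4% and 45.5%), other kinetochore genes (25% and 28.1%) and other kinases (25% and 30%). G1/S genes lie near all genes kept.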

How the data were processed

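Total RNA was labelled with biotin by a 3' IVT kit, per the labels' protocols, and hybridised to 1 array per group. The authors summarised probe sets by RMA, per the submitters' processing notes, and deposited log2 signals, a scale read from the range of the values. No source used here gives the version or settings of RMA. Probe sets were named through the platform's annotation table, with 44988 carrying 1 symbol, 1832 several and 2473 not listed. Log2 differences were taken per gene and counted past 2-fold. No test was made, since each group has 1 array, and the number of arrays limits the precision.

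Members and lists were chosen with earlier results of these data known. Every member could be named, and of other lists up to the 3 largest differences per comparison. Some further genes of those lists were also named, such as SPC24, INCENP, MYBL2 and LIN37. Alternatives were 1.5-fold and 3-fold thresholds, the mean over probe sets, each probe set alone, no probe sets ending in _x_at or _s_at, no filter or the 75th percentile, repeated quantile normalization, cyclic loess (limma 3.58.1, span 0.4, 3 cycles) and centring. Counting was tested on simulated arrays. All 43 symbols were found in the RefSeq gene table of GRCh38.p14, and sequences come from RefSeq. Python 3.11.15, numpy 2.4.6 and pandas 2.3.3 were used.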

Additional observations from a re-analysis of the deposited data

Results flagged for a closer look

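KIF20B was measured but left out of the counts of members kept because its mean signal over the arrays lay below the filter. It entered only the promoter counts and the setting with no filter. It still stood 2.46 (log2) above control in vector cells. Its signals were 6.37 in vector, 4.59 in siRNA and 3.91 in control cells on 1 probe set, so the control and siRNA signals are dim and the size of the difference is uncertain.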

How the results depend on the processing

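No paired analysis was possible because each group has 1 array. The median of all genes kept was -0.18 for vector minus control and -0.17 for siRNA minus control, and -0.025 and 0.017 after cyclic loess. Relative to it, with centred differences, 19 and 17 members were at least 2-fold higher and their medians were 0.72 and 0.81. CCNA2 was the member added in vector cells (1.13, and 1.03 after cyclic loess). Repeated quantile normalization gave 17 and 17 members higher, with 4.74% and 3.74% of all genes lower. Members 2-fold higher numbered 15 to 19 in vector and 15 to 17 in siRNA cells over the other filters, scalings and gene summaries. Over all genes, 10.1% to 18.1% were higher in vector and 9.81% to 18.1% in siRNA cells under these settings. With each probe set counted alone, 46 of 107 were higher and 1 lower in vector, 44 higher and 3 lower in siRNA cells, and 6 higher in vector than in siRNA cells. Over all probe sets kept, 16.3% were higher and 1.70% lower in vector, and 15.8% higher and 1.91% lower in siRNA cells. Between the arms, 1.47% were higher in vector cells. At 1.5-fold, 6 members were lower in vector and 5 in siRNA cells than in control, and 5 were higher in vector than in siRNA cells. Over all genes kept these shares were 19.4%, 18.0% and 4.74%, in that order. At 3-fold, 11 were higher and 0 lower in siRNA than in control cells, and 1 was higher in vector than in siRNA cells. The same shares over all genes kept were 7.25%, 0.046% and 0.63%. The lower siRNA count (1) was 0 with the mean over probe sets, cyclic loess or centring. After repeated quantile normalization the 1 gene was CDC25B (-1.02) in place of CDC20 (-0.98). With the filter at the 75th percentile 1 member was higher in vector than in siRNA cells, since fewer genes are kept. Of all genes kept at that filter, 1.24% were. Of 39 single differences past 2-fold, 37 stayed past it under the mean over probe sets, the set without _x_at and _s_at probe sets, and the 3 scalings, where the gene had a value, and CDC20 in siRNA and NEK2 in vector cells did not. Single probe sets of called members fell short of 2-fold for CENPF (0.83) and NEK2 (0.96) in siRNA and TOP2A (0.93) in vector cells, and at 3-fold 14 of the 18 were higher in vector cells. Of all genes kept, 8.15% were at least 3-fold higher than control in vector cells. TTK and TPX2 had no probe set left without those ending in _x_at or _s_at. RMA compresses low signals, so folds of genes dim in control, such as TTK, KIF18A, CENPC, CEP290 and LIN9, may be understated.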
